A study of Mus musculus with 18 samples.

Results

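The mast cell set of 9 genes was followed through every library: the chymases Cma1 and Mcpt4, the tryptases Tpsb2 and Tpsab1, the carboxypeptidase Cpa3, the receptor genes Kit, Fcer1a and Ms4a2, and Hdc, which makes histamine. They were matched by symbol, and all 9 were found among the 24091 symbols of the epididymal table and among the 51826 identifiers of the inguinal table. The set was taken up because mast cell genes had been seen to be higher under shiftwork in epididymal fat at ZT12, so the genes were chosen by their levels in that contrast, which serves here as a description without a test.

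The libraries came from white fat of C57BL/6 mice, with 3 libraries in each of 6 groups. Shiftwork mice followed a light cycle that was turned round on 3 days of every week and regular on the other 4 days, while control mice stayed on 12 h of light and 12 h of dark, both for 24 weeks. Epididymal white adipose tissue (eWAT, visceral fat beside the male tract) was taken from shiftwork mice and from control mice, at ZT12 and at ZT3, that is 12 and 3 h after lights-on of the regular cycle. Inguinal white adipose tissue (iWAT, subcutaneous fat) was taken from shiftwork mice and from control mice at ZT3. The labels do not say whether a library holds RNA of a single mouse, so p-values measure the spread between these libraries.

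Mast cells are long-lived granulocytes that settle in connective tissue near vessels, and white fat holds a resident population. Stem cell factor acts through KIT to keep them alive, and IgE bound to the high-affinity receptor (alpha chain Fcer1a, beta chain Ms4a2, gamma chain Fcer1g) triggers release of their granules. Those granules hold histamine, proteoglycan and large amounts of chymase, tryptase and carboxypeptidase, whose transcripts are largely restricted to mast cells, whereas Kit is also used by melanocytes, interstitial cells of Cajal and germ cells.

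Assigned reads ran from 20352008 to 72276733 per eWAT library and from 28544338 to 55639501 per iWAT library, so 3 reads equal 0.0415 to 0.147 CPM (reads scaled to library size) in eWAT; in iWAT they equal between 0.0539 and 0.105 CPM. Markers of adipocytes, the cell type that defines the tissue, summed to between 8619 and 27462.8 CPM in every library. Libraries of eWAT at ZT3 stood apart. The summed level of 8 vas deferens and epididymis markers was 2.39 to 5.08 CPM in ZT3 shiftwork libraries, against 11409.8, 11.6 and 11970.8 CPM in ZT3 control replicates 1 to 3. Spermatid markers summed to 4108.2 CPM in ZT3 shiftwork replicate 3 and to at most 63.6 CPM in any other eWAT library. In iWAT, shiftwork replicate 1 carried skeletal muscle markers at 47405.7 CPM, and control replicates 1 and 2 carried B and plasma cell markers at 931 and 1418.3 CPM, against 5.0 to 44.1 CPM in shiftwork libraries. For most genes of the set, eWAT fold changes that involve ZT3 are given below with and without 3 of these libraries. They are ZT3 control replicates 1 and 3 and ZT3 shiftwork replicate 3. Fold changes in iWAT are given for some genes with single libraries left out. No value is given without both iWAT control replicates 1 and 2. Correlations between genes of the set, their ratios, group means and levels per length are given with all libraries only. The part of the other cells in these libraries was not tested.

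Promoter windows of RefSeq (GRCm38.p6, 300 bases around the start site) were found for 7 of the 9 genes; Tpsb2 and Tpsab1 were not among them. The windows of 3 genes are shown because these protease genes moved together across libraries, and capitals mark GATAA, or TTATC where it lies on the opposite strand, the letters at the core of sites for GATA factors. The windows are Cma1 (chr14:55944626-55944925, minus strand), Mcpt4 (chr14:56062261-56062560, minus strand) and Cpa3 (chr3:20242132-20242431, minus strand), each read 5′ to 3′ along the gene.
Cma1: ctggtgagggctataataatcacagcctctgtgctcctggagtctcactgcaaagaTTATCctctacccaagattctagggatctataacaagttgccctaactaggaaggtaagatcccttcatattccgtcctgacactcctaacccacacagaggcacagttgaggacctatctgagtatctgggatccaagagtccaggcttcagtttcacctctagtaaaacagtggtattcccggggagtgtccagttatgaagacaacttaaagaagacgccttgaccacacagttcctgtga
Mcpt4: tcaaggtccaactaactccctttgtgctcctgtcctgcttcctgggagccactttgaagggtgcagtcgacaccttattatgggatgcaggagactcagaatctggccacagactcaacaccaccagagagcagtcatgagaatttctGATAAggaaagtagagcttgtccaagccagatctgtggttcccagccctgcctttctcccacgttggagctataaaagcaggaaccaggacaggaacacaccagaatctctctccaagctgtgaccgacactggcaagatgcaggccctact
Cpa3: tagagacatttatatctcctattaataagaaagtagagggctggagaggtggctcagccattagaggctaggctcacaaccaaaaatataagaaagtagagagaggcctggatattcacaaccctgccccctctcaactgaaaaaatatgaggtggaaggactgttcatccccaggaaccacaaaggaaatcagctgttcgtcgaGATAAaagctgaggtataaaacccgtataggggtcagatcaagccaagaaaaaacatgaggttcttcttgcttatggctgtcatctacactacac
Counted from the start site, the match began at position -45 in Cpa3, -102 in Mcpt4 and -194 in Cma1. GATAA on either strand was present in 5 of 8 windows of these genes (62.5%; Kit has 2 windows), against 8347 of 32851 windows of all genes (25.4%). Fcer1a and Ms4a2 held the other matches, and the Kit and Hdc windows held none. The E-box letters CANNTG were present in 75.0% of the 8 windows and in 72.3% of all, and the clock-type E-box CACGTG was in 0 of 8 and in 7.15% of all. A match describes letters and not a bound site.

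In epididymal fat at ZT3 the proteases were lower in every shiftwork library than in every control library, although no gene passed the test over all genes. Cma1, the chymase gene (chromosome 14, 55941451 to 55944675), was at 3.81, 2.2 and 4.41 CPM in ZT3 shiftwork libraries, against 10.8, 8.9 and 10.4 CPM in ZT3 control libraries. Tpsb2, the main tryptase gene (chromosome 17, 25366333 to 25368092), was at 5.53, 2.78 and 7.77 CPM in ZT3 shiftwork libraries, against 15.7, 12.2 and 16.9 CPM in ZT3 control libraries. Both ranges were apart, with shiftwork replicate 2 the lowest. Mcpt4, the second chymase gene (chromosome 14, 56059744 to 56062310), was at 7.34, 4.29 and 8.49 CPM in ZT3 shiftwork libraries, against 15.2, 12.6 and 16.6 CPM in ZT3 control libraries. Cpa3, which trims peptides from their carboxyl end (chromosome 3, 20215616 to 20242181), was at 6.19, 2.68 and 6.85 CPM in ZT3 shiftwork libraries, against 13.3, 11.2 and 16.5 CPM in ZT3 control libraries. These ranges were apart too. Tpsab1, a tryptase gene in which C57BL/6 mice are known to carry a splice-site change (chromosome 17, 25343245 to 25345562), was at 0.286, 0.0976 and 0.378 CPM in ZT3 shiftwork libraries, against 0.477, 0.438 and 0.682 CPM in ZT3 control libraries. It rested on 2 to 38 reads per eWAT library and reached the count filter in 3 of 12 of them, so its values are coarse. Those were ZT3 control replicates 1 and 3 and ZT12 shiftwork replicate 3, in groups where it was high. Its direction in eWAT therefore lends the other genes no support. Part of the Mcpt4 and Cma1 sequence (5.29% and 5.19% of 51-base windows) also occurs in related genes, so a few reads could be shared. In whole tissue, fewer mast cells and less RNA per mast cell cannot be told apart.

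The log2 fold change of shiftwork over control at ZT3 was -1.51 ± 0.42 (SE) for Cma1, with an adjusted p of 0.203 in edgeR's quasi-likelihood test over 15141 genes. Tpsb2 stood at -1.45 ± 0.4 (adjusted p 0.201) and Cpa3 at -1.36 ± 0.47 (adjusted p 0.217). Mcpt4 stood at -1.12 ± 0.46 (adjusted p 0.231) and Tpsab1 at -1.01 ± 0.58 (adjusted p 0.373). None passed the threshold of 0.05. DESeq2 on the same counts put Cma1 (-1.52, adjusted p 0.0215) and Tpsb2 (-1.46, adjusted p 0.021) past it. It also called many other genes in this comparison, counted below. Their share of the genes DESeq2 tested is not given, so nothing is read from these calls. Over all alternatives the adjusted p of Cma1 ran from 0.0215 to 0.552 and that of Tpsb2 from 0.021 to 0.552.

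**Figure D1:**
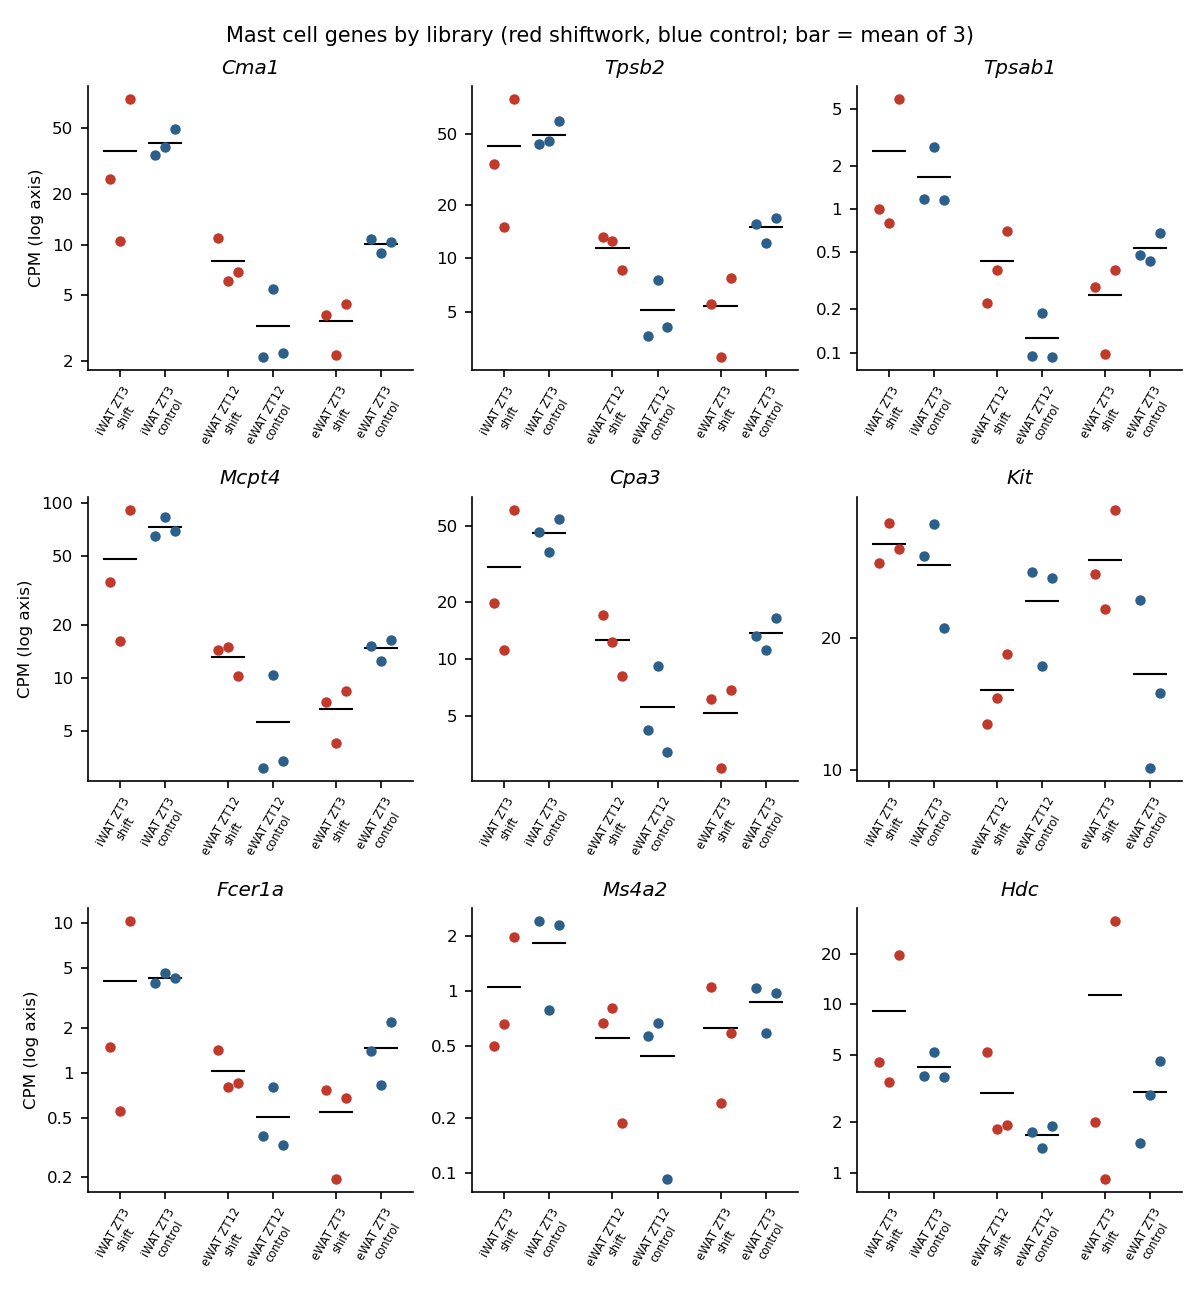
CPM (log axis, scaled per gene) of the 9 genes in each of the 18 libraries, by depot, time and schedule; points are libraries in replicate order and bars are group means. Cma1 in eWAT at ZT3 lies at 2.2 to 4.41 CPM in shiftwork libraries and at 8.9 to 10.8 CPM in control libraries, and Kit runs the other way.

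The receptor genes did not move as one. Fcer1a, the IgE-binding chain (chromosome 1, 173221271 to 173227229), was at 0.762, 0.195 and 0.672 CPM in ZT3 shiftwork libraries, against 1.39, 0.827 and 2.19 CPM in ZT3 control libraries. Its groups were apart, as in the proteases, with a log2 fold change of -1.4 ± 0.59 (SE; edgeR adjusted p 0.241). Ms4a2, the signal-amplifying beta chain (chromosome 19, 11615521 to 11623719), was at 1.05, 0.244 and 0.588 CPM in ZT3 shiftwork libraries, against 1.04, 0.584 and 0.975 CPM in ZT3 control libraries. The ranges overlapped, and the log2 fold change was -0.46 ± 0.74 (edgeR adjusted p 0.782). Kit, the stem cell factor receptor (chromosome 5, 75574987 to 75656721), was at 28.1, 23.3 and 39.3 CPM in ZT3 shiftwork libraries, against 24.5, 10.1 and 15 CPM in ZT3 control libraries. It was higher in shiftwork on average, at a log2 fold change of 0.89 ± 0.34 (edgeR adjusted p 0.22). Control replicate 1, a library with vas deferens transcripts, lay inside the shiftwork range. The highest value, 39.3 CPM, belongs to shiftwork replicate 3, the library with spermatid markers. The part of these other cells in the Kit level was not tested.

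Hdc, the histidine decarboxylase that makes histamine (chromosome 2, 126593660 to 126618678), was at 2.0, 0.927 and 31.2 CPM in ZT3 shiftwork libraries, against 1.52, 2.92 and 4.63 CPM in ZT3 control libraries. The high value belongs to the library with spermatid markers, and the other shiftwork libraries lay within or below the control range. The log2 fold change of 1.97 ± 1.1 (SE; edgeR adjusted p 0.36) became -1.03 without that library. Its part in the Hdc level was not tested.

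Over the set, 7 of 9 log2 fold changes at ZT3 were negative, with a median of -1.12 against 0.06 over all genes tested. Shiftwork lay below control without overlap in 6 of the 9 (Cma1, Tpsb2, Tpsab1, Mcpt4, Cpa3 and Fcer1a), where 4.46% of all genes tested did so. Among the 6, Tpsab1 had passed the count filter only through groups where it was high, so it adds no weight to this count. None lay above without overlap, against 7.13% of all genes. By edgeR, 0 of 15141 genes were called (percent called 0.0), with 1931 higher and 916 lower at an unadjusted p under 0.05; among these were 5 of the 9 on the lower side (6.05% of all genes) and Kit on the higher side (12.8% of all genes). DESeq2 called 662 genes, 248 higher and 414 lower, and edgeR without ZT3 control replicate 2 called 403. Without ZT3 control replicates 1 and 3 and ZT3 shiftwork replicate 3, the same 6 genes and Hdc lay below the remaining control library, but so did 35.0% of all genes. Kit lay above it, as did 40.0% of all genes. The log2 fold changes were then 1.33 for Kit, -1.59 for Cma1, -1.57 for Tpsb2, -1.18 for Tpsab1, -1.14 for Mcpt4, -1.35 for Cpa3 and -0.8 for Fcer1a. The 5 proteases together stood at 23.2, 12.1 and 27.9 CPM in ZT3 shiftwork libraries, against 55.5, 45.4 and 61.1 CPM in ZT3 control libraries. The lowest of these control values, 45.4 CPM, belongs to replicate 2, the control library with vas deferens markers at 11.6 CPM. Markers of several other cells were lower in shiftwork together with the proteases. The summed level of B and plasma cell markers was 13.0 to 41.6 CPM in ZT3 shiftwork libraries and 65.5 to 261 CPM in ZT3 control libraries, and 7 of 7 were lower in shiftwork (median log2 fold change -1.32). Smooth muscle markers summed to 369, 338 and 623 CPM in ZT3 shiftwork libraries, against 10349.5, 421 and 7777.9 CPM in ZT3 control libraries, with 7 of 7 lower (median -3.62). Mesothelium markers summed to 31.4 to 128 CPM in ZT3 shiftwork libraries and 108 to 260 CPM in ZT3 control libraries, with 5 of 5 lower (median -0.44), and 3 of 3 tested lymph node stroma markers were lower (median -1.64). Basophil markers summed to 2.54 to 17.2 CPM in ZT3 shiftwork libraries and 3.6 to 13.2 CPM in ZT3 control libraries; 3 of 4 tested were lower (median -0.35), and the basophil protease Mcpt8 had 0 reads in all 6 libraries. Markers of other cells went the other way: 9 of 9 macrophage markers were higher in shiftwork (median 0.25). So were 5 of 6 adipocyte markers (median 0.27) and 4 of 5 endothelium markers (median 0.25). All 7 spermatid markers were higher too (median 6.92), with the high level in ZT3 shiftwork replicate 3. The part of these cells in the result was not tested.

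At ZT12 the same proteases stood higher in shiftwork eWAT, the pattern that led to their choice. Cma1 was at 10.9, 6.09 and 6.91 CPM in ZT12 shiftwork libraries, against 2.13, 5.45 and 2.24 CPM in ZT12 control libraries. Tpsb2 was at 13.2, 12.5 and 8.56 CPM in ZT12 shiftwork libraries, against 3.65, 7.53 and 4.1 CPM in ZT12 control libraries. Both genes were apart, and control replicate 2 was the highest of its group. The values of Mcpt4 were 14.5, 15.1 and 10.3 CPM in ZT12 shiftwork libraries, against 3.08, 10.4 and 3.36 CPM in ZT12 control libraries. Those of Cpa3 were 17.1, 12.4 and 8.18 CPM in ZT12 shiftwork libraries, against 4.22, 9.24 and 3.26 CPM in ZT12 control libraries. In both, control replicate 2 reached into the shiftwork range. Tpsab1 was at 0.222, 0.378 and 0.709 CPM in ZT12 shiftwork libraries, against 0.0947, 0.189 and 0.0932 CPM in ZT12 control libraries, apart but at a few reads per library. Summed, the 5 proteases stood at 56.0, 46.4 and 34.6 CPM in ZT12 shiftwork libraries, against 13.2, 32.8 and 13.0 CPM in ZT12 control libraries.

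The receptors at ZT12 split as they did at ZT3. Fcer1a was at 1.42, 0.803 and 0.851 CPM in ZT12 shiftwork libraries, against 0.379, 0.805 and 0.326 CPM in ZT12 control libraries, with control replicate 2, high for the proteases, again the highest of its group and just inside the shiftwork range. Ms4a2 was at 0.667, 0.803 and 0.189 CPM in ZT12 shiftwork libraries, against 0.568, 0.663 and 0.0932 CPM in ZT12 control libraries, and overlapped. Kit was at 12.7, 14.6 and 18.4 CPM in ZT12 shiftwork libraries, against 28.3, 17.3 and 27.5 CPM in ZT12 control libraries. Its lowest control library, inside the shiftwork range, was replicate 2, the control with the highest protease levels. Hdc was at 5.2, 1.84 and 1.94 CPM in ZT12 shiftwork libraries, against 1.75, 1.42 and 1.91 CPM in ZT12 control libraries, and overlapped.

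As a description, the fitted log2 fold changes of shiftwork over control at ZT12 were 1.29 ± 0.42 for Cma1, 1.17 ± 0.4 for Tpsb2, 1.76 ± 0.63 for Tpsab1, 1.25 ± 0.46 for Mcpt4 and 1.18 ± 0.47 for Cpa3. They were 1.02 ± 0.59 for Fcer1a, 0.33 ± 0.76 for Ms4a2, -0.68 ± 0.34 for Kit and 0.82 ± 1.09 for Hdc (± SE throughout). Groups were apart on the higher side for 3 of 9 genes, against 5.67% of all genes tested, and on the lower side for none, against 6.74%; at an unadjusted p under 0.05, 1.6% of all genes were higher, and nothing is read from these shares since this contrast chose the set. Without control replicate 2, Cma1 stood at 1.87 and Mcpt4 at 2.05. Summed B and plasma cell markers were at 30.6 to 35.7 CPM in ZT12 shiftwork libraries and at 27.8 to 31.7 CPM in ZT12 control libraries, with 6 of 7 genes higher in shiftwork and a median log2 fold change of 1.19. Smooth muscle markers summed to 446, 949 and 937 CPM in ZT12 shiftwork libraries, against 467, 431 and 457 CPM in ZT12 control libraries, with 7 of 7 higher (median 1.49). Mesothelium markers summed to 333, 94.8 and 47.3 CPM in ZT12 shiftwork libraries, against 96.5, 111 and 37.3 CPM in ZT12 control libraries, with 5 of 5 higher (median 0.93). Lymph node stroma markers summed to 2.93 to 35.7 CPM in ZT12 shiftwork libraries and 2.27 to 2.66 CPM in ZT12 control libraries, with 3 of 3 tested higher (median 2.69), and 4 of 4 tested basophil markers were higher (median 0.72). Other lists did not follow: 6 of 9 macrophage markers were higher (median 0.06), and 5 of 6 adipocyte markers were lower (median -0.21). The part of these cells in the protease values was not tested.

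**Figure D2:**
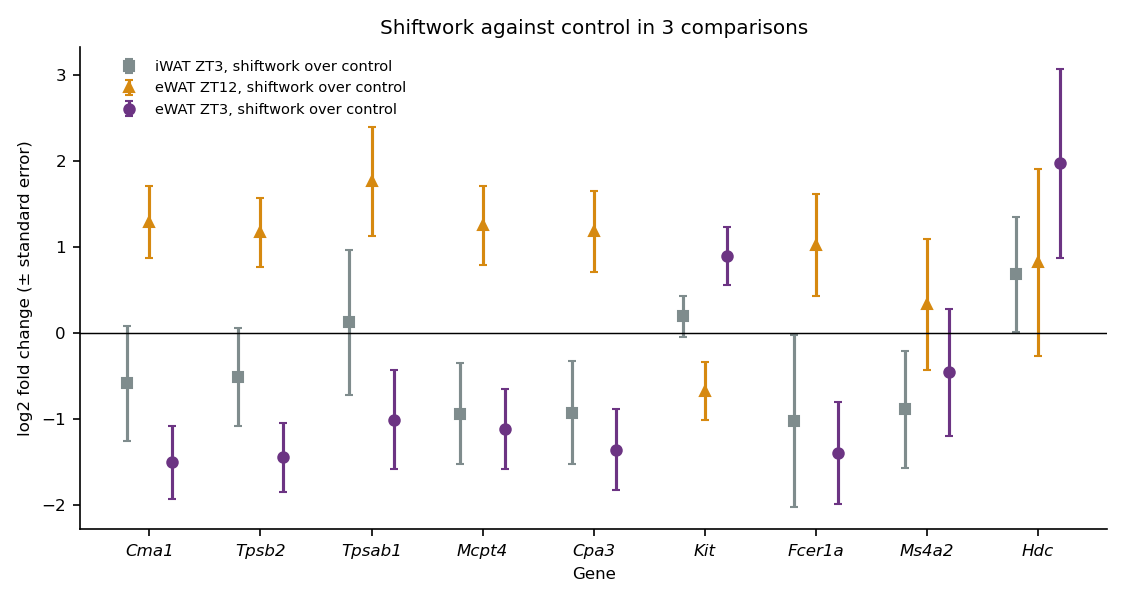
Log2 fold change of shiftwork over control (points) with its standard error (bars) for each gene in iWAT at ZT3, eWAT at ZT12 and eWAT at ZT3. Cma1 lies at 1.29 at ZT12 and at -1.51 at ZT3 in eWAT, Kit at -0.68 and 0.89, while in iWAT Cma1 lies at -0.59 ± 0.67.

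Set by time, the proteases ran in opposite directions under the different schedules. These contrasts share libraries with the ZT12 contrast, so they are descriptions too. In controls, the log2 fold change of ZT12 over ZT3 was -1.62 for Cma1, -1.55 for Tpsb2, -2.04 for Tpsab1, -1.4 for Mcpt4, -1.3 for Cpa3 and -1.54 for Fcer1a. All 6 had every ZT12 control library below every ZT3 control library, where 13.5% of all genes did so. Tpsab1 had passed the count filter only through groups where it was high. Over all genes edgeR called 3.69% in this comparison, none of the 9 among them, and 9.46% were lower at an unadjusted p under 0.05. Fitted without the 3 ZT3 libraries named above (control replicates 1 and 3 and shiftwork replicate 3), these values were -1.49 for Cma1, -1.3 for Tpsb2, -1.8 for Tpsab1, -1.21 for Mcpt4, -1.05 for Cpa3 and -0.75 for Fcer1a. In the same comparison of controls, 7 of 7 smooth muscle markers were lower at ZT12 (median -3.66, 4 called by edgeR), 7 of 7 B and plasma cell markers were lower and all apart (median -2.29), and 2 of 4 tested vas deferens markers were called, and their part was not tested. Under shiftwork, the log2 fold change of ZT12 over ZT3 was 1.18 for Cma1, 1.07 for Tpsb2, 0.73 for Tpsab1, 0.97 for Mcpt4, 1.24 for Cpa3 and 0.89 for Fcer1a. In the fit without the 3 libraries they were 1.39, 1.44, 1.14, 1.18, 1.48 and 1.07 in the same order of genes. With all libraries, each but Tpsab1 had every ZT12 shiftwork library above every ZT3 shiftwork library, against 9.31% of all genes; 5.81% of all genes were higher at an unadjusted p under 0.05. Kit went the other way, at 0.56 in controls and at -1.01 under shiftwork, where its ZT12 libraries all lay below its ZT3 libraries (7.2% of all genes); without the 3 libraries it stood at 1.23 in controls and -0.77 under shiftwork. Ms4a2 stood at -0.97 in controls and -0.19 under shiftwork, and at -0.44 and -0.24 without them. Hdc stood at -0.83 in controls and at -1.97 under shiftwork, the last turning to 1.03 without the library with spermatid markers.

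The order of group means in eWAT was the same for Cma1, Tpsb2 and Mcpt4. For Tpsb2 the highest was 14.9 ± 2.43 CPM in ZT3 controls, followed by 11.4 ± 2.51 CPM in ZT12 shiftwork, 5.36 ± 2.5 CPM in ZT3 shiftwork and 5.09 ± 2.12 CPM in ZT12 controls (SD, n = 3 each). The upper pair of groups overlapped in these 3 genes, and so did the lower pair. Cpa3 differed only in its lower pair, at 5.57 ± 3.21 CPM in ZT12 controls and 5.24 ± 2.24 CPM in ZT3 shiftwork.

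Across the 12 eWAT libraries, Cma1, Tpsb2, Mcpt4 and Cpa3 varied together. Pearson's r between pairs of them on log2(CPM + 1) was 0.95 to 0.97, and 0.95 to 1.0 across the 6 iWAT libraries. These points share libraries, depth and group differences, and r is given as a description. Fcer1a followed them at r = 0.86 to 0.91, Tpsab1 at 0.65 to 0.74 and Ms4a2 at 0.53 to 0.65. Kit ran against them at -0.65 to -0.59, and Hdc was at 0.19 to 0.26. Per length, the ratio of Cma1 to Mcpt4 stayed between 0.371 and 0.683 in eWAT, while that of Kit to Mcpt4 spanned 0.15 to 1.58. That ratio was 0.16 to 0.323 in ZT12 shiftwork libraries and 0.299 to 1.58 in ZT12 control libraries. It was 0.678 to 0.953 in ZT3 shiftwork libraries and 0.15 to 0.289 in ZT3 control libraries. A list of 6 markers of melanocytes and interstitial cells of Cajal, which also use Kit, summed to 23.7 to 83.4 CPM in ZT3 shiftwork libraries and 39.5 to 105 CPM in ZT3 control libraries, with overlap. It was 40.7 to 58.9 CPM in ZT12 shiftwork libraries and 30.8 to 40.1 CPM in ZT12 control libraries, where Kit was lower in shiftwork on average.

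**Figure D3:**
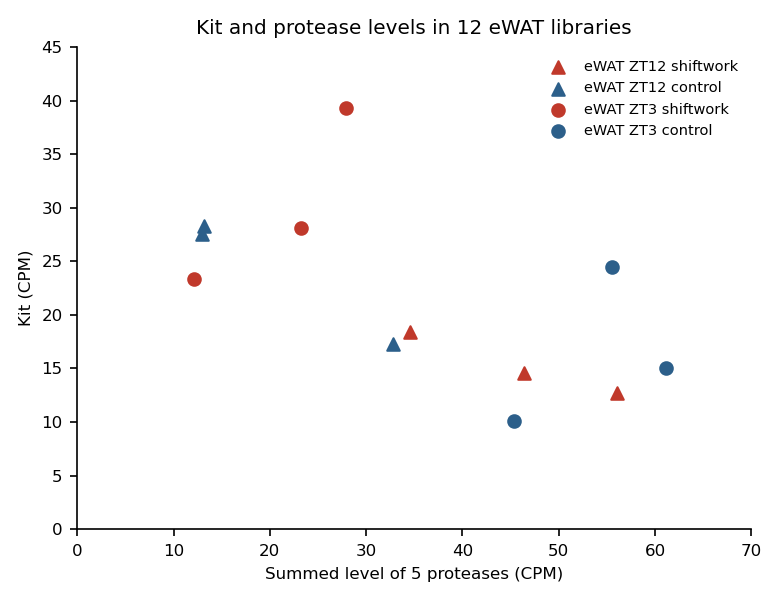
Kit (CPM, vertical) against the summed level of 5 proteases (CPM, horizontal) in the 12 eWAT libraries; colour marks the schedule and shape the time. Libraries of ZT12 shiftwork lie at 34.6 to 56.0 CPM of proteases with Kit at 12.7 to 18.4 CPM, and those of ZT3 shiftwork at 12.1 to 27.9 CPM with Kit at 23.3 to 39.3 CPM.

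Other genes of the mast cell programme, taken as whole lists, showed no such one-sided pattern at ZT3. No gene of any list passed the test at ZT3 in either depot. Of 12 granule, storage and lipid mediator genes, 7 were higher and 5 lower in eWAT at ZT3, with a median log2 fold change of 0.09. Its most abundant members were Ltc4s, which makes leukotriene C (0.11 ± 0.24; edgeR adjusted p 0.84), Srgn, the granule proteoglycan core (0.16 ± 0.17; 0.652), and Vamp8, a granule fusion protein (-0.21 ± 0.13; 0.416). Of 12 genes of Fc epsilon receptor signalling, 7 were higher and 5 lower (median 0.08). Fcer1g, the gamma chain shared with macrophage receptors, stood at -0.04 ± 0.29 (edgeR adjusted p 0.964), the adaptor Gab2 at -0.34 ± 0.17 (0.313) and the phospholipase Plcg1 at 0.3 ± 0.22 (0.493). Of 10 surface and cytokine receptor genes 9 were tested, with 6 higher and 3 lower (median 0.38), led in level by Fcgr2b (0.39 ± 0.29; 0.503), Csf2rb (0.38 ± 0.23; 0.389) and Il3ra (0.74 ± 0.25; 0.216). Macrophages and other blood cells also express most of these.

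Of 7 mast cell transcription factor genes 6 were tested, 2 higher and 4 lower (median -0.11), with Zeb2 at -0.33 ± 0.29 (edgeR adjusted p 0.574), Stat5b at 0.19 ± 0.2 (0.647) and Stat5a at 0.07 ± 0.23 (0.897). Of 8 growth and alarm ligands, 4 were tested; Kitl, the stem cell factor that binds KIT, stood at 0.27 ± 0.18 (0.448) and the alarmin Il33 at -0.17 ± 0.57 (0.904). Histamine receptors and breakdown, protease receptor and angiotensin genes (8 of 9 tested) had a median of 0.22, with Agt at 0.61 ± 0.27 (0.258), Ace at 1.12 ± 0.43 (0.22) and the histamine methyltransferase Hnmt at 0.18 ± 0.37 (0.834). Only 2 of 9 other granule protease genes had enough reads in eWAT, Gzmb at 0.33 ± 0.55 (0.789) and Prss34 at -0.48 ± 0.7 (0.75). The mucosal proteases Mcpt1 and Mcpt2 had at most 1 read in any eWAT library.

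Among these lists, 4 genes that textbook accounts place in connective tissue mast cells were picked by name after their values were seen, out of lists whose other genes were mixed in direction, so they lend the proteases no support. Slc18a2, the vesicular transporter that loads histamine and serotonin, was at 0.429, 0.244 and 1.18 CPM in ZT3 shiftwork libraries, against 1.88, 1.41 and 1.12 CPM in ZT3 control libraries. At ZT12 it was at 0.756, 1.75 and 1.66 CPM in shiftwork libraries, against 0.521, 0.426 and 0.186 CPM in control libraries. The groups overlapped at ZT3 and were apart at ZT12, where 5.67% of all genes tested were apart on the higher side. Tph1, which makes serotonin, was at 0.143, 0.146 and 0.546 CPM in ZT3 shiftwork libraries, against 3.24, 0.924 and 2.05 CPM in ZT3 control libraries, and its log2 fold change was -2.83 ± 0.74 (SE; edgeR adjusted p 0.195). Mrgprb2, the receptor for basic secretagogues, was at 0.333, 0.244 and 0.84 CPM in ZT3 shiftwork libraries, against 1.48, 0.632 and 0.975 CPM in ZT3 control libraries. Its neighbour in sequence Mrgprb1 was at 0.905, 0.537 and 2.06 CPM in ZT3 shiftwork libraries, against 3.64, 2.87 and 3.36 CPM in ZT3 control libraries. Tph1 and Mrgprb1 were apart at ZT3, where 4.46% of all genes tested were apart on the lower side. Both were highest in ZT3 control replicates 1 and 3, the libraries with vas deferens transcripts, and no fit without these is given. Their log2 fold changes at ZT12 were 1.45 ± 0.75 and 0.65 ± 0.51. Reads of close receptor paralogs may be shared between genes.

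**Figure D4:**
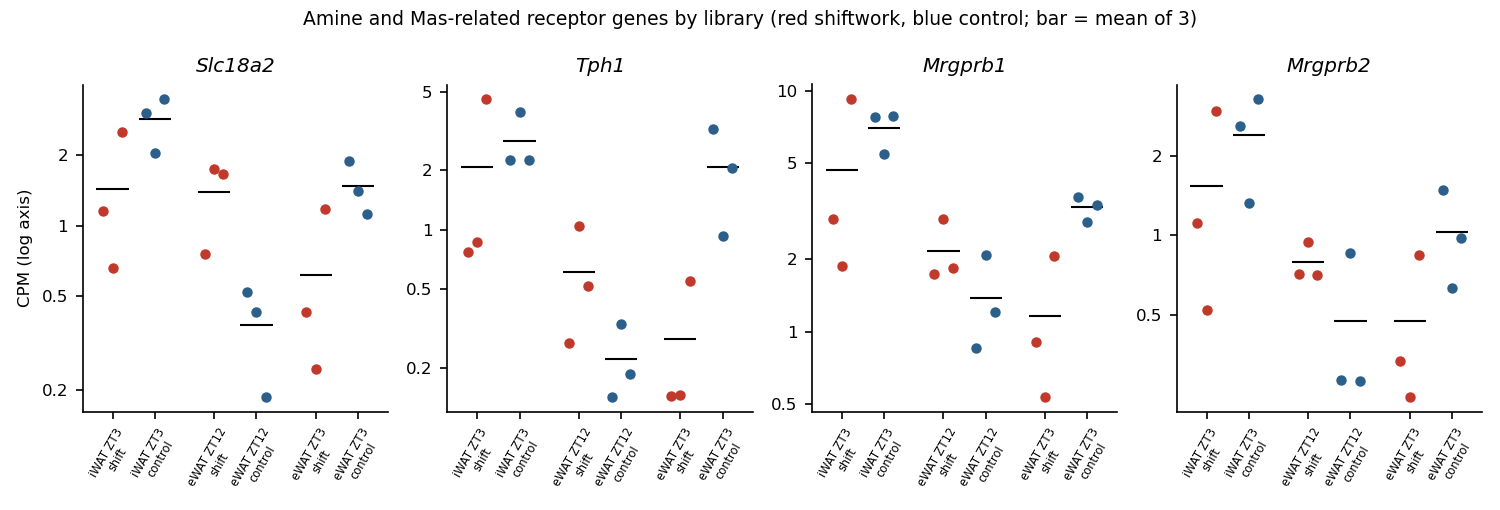
CPM (log axis) of Slc18a2, Tph1, Mrgprb1 and Mrgprb2 in the 18 libraries, by depot, time and schedule; points are libraries and bars are group means. In eWAT at ZT3 Mrgprb1 lies at 0.537 to 2.06 CPM in shiftwork libraries and at 2.87 to 3.64 CPM in control libraries.

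In inguinal fat no gene of the set separated the schedules, and for the proteases, Fcer1a and Hdc the shiftwork libraries were spread more widely than the control libraries. Cma1 was at 24.6, 10.5 and 74.6 CPM in iWAT shiftwork libraries, against 34.5, 38.7 and 49.3 CPM in iWAT control libraries. Tpsb2 was at 34.0, 15 and 79.1 CPM in iWAT shiftwork libraries, against 44, 45.8 and 59.3 CPM in iWAT control libraries. For both, shiftwork replicate 3 lay above all controls and replicates 1 and 2 below them. Mcpt4 was at 35.5, 16.4 and 91.3 CPM in iWAT shiftwork libraries, against 65.2, 83.0 and 69.3 CPM in iWAT control libraries. Cpa3 was at 19.7, 11.2 and 61.1 CPM in iWAT shiftwork libraries, against 46.5, 36.6 and 54.9 CPM in iWAT control libraries. The same split of the shiftwork libraries held in both genes. Summed, the 5 proteases stood at 115, 53.9 and 312 CPM in iWAT shiftwork libraries, against 191, 207 and 234 CPM in iWAT control libraries.

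Fcer1a was at 1.49, 0.554 and 10.3 CPM in iWAT shiftwork libraries, against 3.95, 4.61 and 4.26 CPM in iWAT control libraries. Ms4a2 was at 0.498, 0.658 and 1.97 CPM in iWAT shiftwork libraries, against 2.41, 0.784 and 2.29 CPM in iWAT control libraries. Shiftwork replicate 3 was again the highest of its group in both. Kit was at 29.7, 36.6 and 32.0 CPM in iWAT shiftwork libraries, against 30.9, 36.4 and 21.1 CPM in iWAT control libraries, with no such split. Hdc was at 4.56, 3.47 and 19.5 CPM in iWAT shiftwork libraries, against 3.79, 5.24 and 3.73 CPM in iWAT control libraries. Tpsab1 was at 0.996, 0.797 and 5.88 CPM in iWAT shiftwork libraries, against 1.17, 2.7 and 1.16 CPM in iWAT control libraries. In both genes replicate 3 of shiftwork was the highest iWAT library.

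By limma on log2(normalized value + 1), the log2 fold change of shiftwork over control in iWAT was -0.59 ± 0.67 (SE) for Cma1 (adjusted p 0.795), -0.52 ± 0.57 for Tpsb2 (0.787), -0.94 ± 0.59 for Mcpt4 (0.693) and -0.93 ± 0.6 for Cpa3 (0.694). It was -1.03 ± 1.0 for Fcer1a (limma adjusted p 0.757), -0.89 ± 0.68 for Ms4a2 (0.717), 0.19 ± 0.24 for Kit (0.82), 0.68 ± 0.67 for Hdc (0.758) and 0.12 ± 0.84 for Tpsab1 (0.97). Without shiftwork replicate 2, Cma1 stood at 0.08 and Tpsb2 at 0.07. No gene of the 9 was apart in either direction, where 6.93% of all genes were on the higher side and 6.07% on the lower. Limma called 0 of 16387 genes (percent called 0.0) with 586 higher (3.58%) and 508 lower (3.1%) at an unadjusted p under 0.05 and none of the 9 among them; edgeR on recovered reads also called 0, DESeq2 called 626, and limma without control replicate 3 called 825. The authors' deposited table of the iWAT comparison gave Cma1 a log2 fold change of -0.129 and Hdc one of 0.941, with an adjusted p of 0.827 for Hdc, and called none of the 9. Macrophage markers summed to 2353.1, 1102.2 and 3488.3 CPM in iWAT shiftwork libraries, against 1510.6, 1915.5 and 1684.6 CPM in iWAT control libraries. Shiftwork replicate 3 was above all controls both in these markers and in summed proteases, and replicate 2 was below them in both. Replicate 1 was above all controls in these markers and below them in summed proteases. The part of macrophages in the mast cell levels was not tested.

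Levels per length, which allow genes to be compared, put Mcpt4 and Tpsb2 first among the set in ZT3 control libraries of both depots. In eWAT ZT3 shiftwork libraries, Kit (4.24 FPKM) and Hdc (4.1 FPKM) averaged above Tpsb2 (3.95 FPKM). In ZT3 controls Mcpt4 averaged 77.9 ± 14.7 RPKM in iWAT and 11.3 ± 2.14 FPKM in eWAT (SD, n = 3 each). Tpsb2 averaged 48.2 ± 2.37 RPKM in iWAT controls and 10.4 ± 2.25 FPKM in eWAT controls. Cma1 averaged 39.8 ± 3.05 RPKM in iWAT controls and 6.96 ± 1.19 FPKM in eWAT controls, and Cpa3 31.9 ± 4.24 RPKM in iWAT controls and 7.15 ± 1.66 FPKM in eWAT controls. Every iWAT control library stood above every eWAT control library for these 4 proteases and for Fcer1a (4.54 ± 0.606 RPKM in iWAT and 1.18 ± 0.527 FPKM in eWAT). The ratio of iWAT over eWAT was 6.91 for Mcpt4, 5.72 for Cma1, 4.64 for Tpsb2, 4.46 for Cpa3 and 3.84 for Fcer1a. It was 1.99 for Tpsab1, 2.05 for Ms4a2, 1.53 for Kit and 0.69 for Hdc, whose libraries overlapped between depots. In CPM, which leaves gene length out, the ratio turned to 1.41 for Hdc and was 3.15 for Tpsab1. The tables were scaled apart by the authors, so these levels are side by side without a test.

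**Figure D5:**
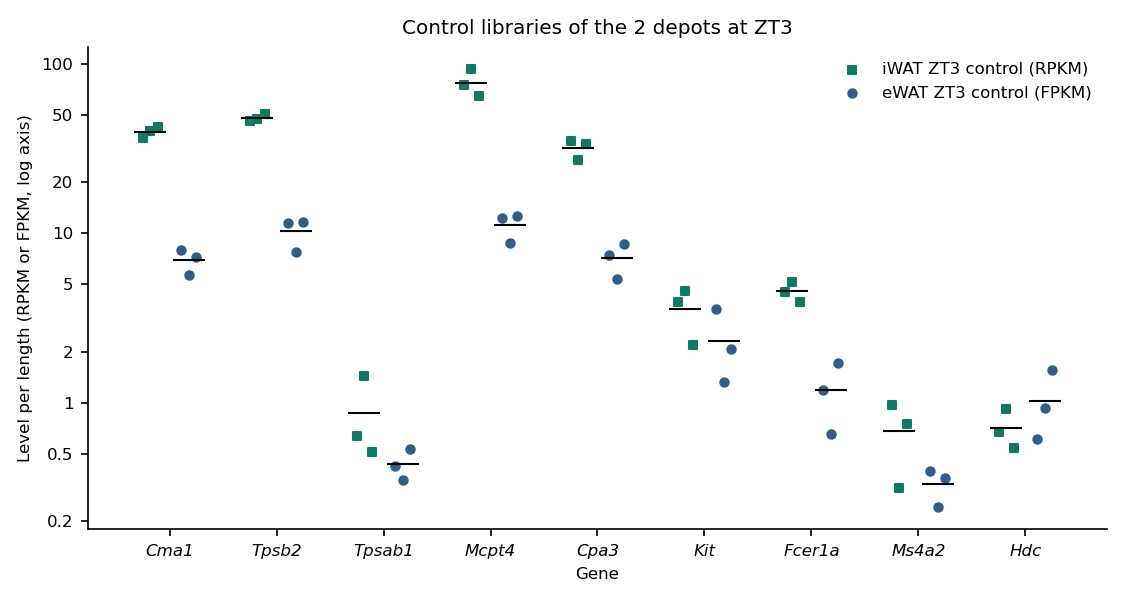
Level per length (RPKM in iWAT, FPKM in eWAT, log axis) of the 9 genes in ZT3 control libraries; points are libraries and bars are means of 3. The iWAT points of Mcpt4, Tpsb2, Cma1, Cpa3 and Fcer1a lie above all eWAT points, while those of Kit and Hdc overlap.

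The 10 genes outside the set whose levels were most like the mean of its 9 genes across the 12 eWAT libraries were Col4a5 (r = 0.95), Col4a6 (0.93), Sult1e1 (0.92), Adamtsl1 (0.92), Dkk2 (0.92), Champ1 (0.91), Igsf3 (0.91), Kcnab1 (0.91), Aldh1l2 (0.89) and Greb1l (0.89), out of 13540 genes ranked. Col4a5 and Col4a6 encode basement membrane collagen chains. Col4a5 was at 24.6, 7.61 and 37.4 CPM in ZT3 shiftwork libraries, against 55.1, 18 and 58.7 CPM in ZT3 control libraries, with its lowest control value in replicate 2. Leaving out the 2 libraries farthest from the median put r at 0.8 to 0.9 for these genes. Across the 6 iWAT libraries r was 0.2 for Col4a5, 0.84 for Igsf3 and -0.76 for Greb1l, so the likeness in eWAT did not carry over for most of them.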

How the data were processed

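RNA-seq of white adipose tissue was analysed in 18 libraries. For eWAT, the deposited files hold whole-number counts per gene and log2 FPKM, per the file headers. FPKM values here are back-transformed and keep the floor of that scale (log2 FPKM of -3.32), which raises low values. For iWAT, the deposited read values are counts divided by size factors (a normalized signal), beside RPKM and the authors' table of log2 fold changes and p-values. Tools listed in the submitters' processing notes are edgeR, limma, DESeq2, HTSeq and STAR, beside the builds GRCm38 and mm10, without roles. The strand setting is not given in the sources used here, so reads of a gene and an antisense partner cannot be told apart. In the GENCODE annotation, no exon of another gene overlapped an exon of any gene of the set.

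Counts of eWAT were tested with edgeR 4.0.16 (quasi-likelihood, TMM, filterByExpr with a minimum count of 10, all 4 groups in the fit) in R 4.3.3, with Benjamini-Hochberg adjustment over 15141 genes. Normalized iWAT values of at least 10 in 3 libraries were tested with limma 3.58.1 on log2(value + 1), over 16387 genes; fold changes on that scale understate the change of low genes. Whole reads were recovered for 100.0% of 310956 iWAT values (tolerance 1e-06) and gave CPM and an added edgeR fit, which called 0 genes. DESeq2 1.42.0, other filters and pseudocounts, and leaving out libraries were alternatives. The fits were tested on simulated data. Same-numbered libraries correlated at -0.437 to 0.31 in eWAT and at -0.183 to 0.0142 in iWAT after removal of group means, so numbers were not taken as pairs.

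The members and lists were chosen with earlier results of these data known. Named genes are all 9 members, the 3 most abundant tested genes of each mast cell list and the 10 genes most like the mean of the set in eWAT; of lists for other cells, summed levels are given where they touch a result. Slc18a2, Tph1, Mrgprb1 and Mrgprb2, and the protease genes Mcpt1, Mcpt2, Mcpt8 and Ctsg, fall outside this rule and were chosen after their values were seen. A gene that this rule would name is not reported here. Groups are called apart where no library of either overlaps the other.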

Additional observations from a re-analysis of the deposited data

Results flagged for a closer look

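Cma1, Tpsb2 and Tpsab1 moved in opposite directions between schedules at the 2 times in eWAT, with every shiftwork library beyond every control library each time. The log2 fold change of shiftwork over control was 1.29 at ZT12 and -1.51 at ZT3 for Cma1, 1.17 at ZT12 and -1.45 at ZT3 for Tpsb2, and 1.76 at ZT12 and -1.01 at ZT3 for Tpsab1. This difference between times was not tested, because the set was chosen on the ZT12 values. Of all 15141 genes, 145 (0.958%) were apart in opposite directions at the 2 times, and 46 (0.304%) were higher at ZT12 and lower at ZT3. Nothing is read from these shares, since the choice of the set fixed its direction at ZT12. Tpsab1 rests on few reads and passed the count filter only through groups where it was high.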

How the results depend on the processing

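Of the log2 values of single genes under alternatives, 629 kept their direction and side of the threshold, 39 moved, 14 reversed and 2 passed the threshold where the main test did not; of the counts and set means, 105 stayed and 29 moved. The cause was not tested. DESeq2 called 662 genes at ZT3, 9 at ZT12, 2186 for time in controls, 287 for time under shiftwork and 626 in iWAT, against 0, 0, 559, 0 and 0. Without ZT3 control replicates 1 and 3 and ZT3 shiftwork replicate 3, 9 genes were called at ZT3 and 75 for time under shiftwork. Leaving out each library gave 0 to 403 calls at ZT3, 0 to 0 at ZT12, 1 to 2744 for time in controls and 0 to 825 in iWAT; without the count filter, time in controls gave 320. With the replicate number as a block, 298 genes were called for time in controls and 0 in the other comparisons; the numbers were not shown to pair the libraries.

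The mean difference of the 9 genes on log2(CPM + 1) was -0.53 at ZT3 (-0.8 to -0.25 leaving out each library; -1.08 for the 5 proteases), 0.58 at ZT12 (0.48 to 0.75; 0.85 with a pseudocount of 0.1; 0.98 for the proteases), -0.78 for time in controls (-0.94 to -0.68; -1.14 with a pseudocount of 0.1; -1.2 for the proteases), 0.34 for time under shiftwork (0.06 to 0.61; 0.85 for the proteases) and -0.33 in iWAT (-0.89 to 0.08).

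Hdc at ZT3 became -1.03 without shiftwork replicate 3 and -1.01 without these 3 libraries (-1.03 to 2.53 leaving out each library), and Hdc for time under shiftwork became 1.03 and 1.02 (-2.63 to 1.03). Ms4a2 became 0.13 at ZT3 without the 3 libraries, and at ZT12 -0.14 without control replicate 3 and -0.03 without shiftwork replicate 2 (-0.14 to 0.74). In iWAT, leaving out each library gave -1.33 to 0.08 for Cma1, -1.13 to 0.07 for Tpsb2, -0.78 to 0.64 for Tpsab1 (with -0.08 and -0.09 between), -0.04 to 0.37 for Kit and -0.09 to 1.16 for Hdc. Depth limits Tpsab1, Fcer1a and Ms4a2 in eWAT most, at 2 to 111 reads per library.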

Other observations

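Proteases of mucosal mast cells and neutrophils had their most reads in iWAT control replicates 1 and 2, which also held lymphocyte and lymph node stroma transcripts. Mcpt2 had 0 reads in each iWAT shiftwork library, against 32, 56 and 0 reads in iWAT control libraries. Mcpt1 had 0 reads in each iWAT shiftwork library, against 12, 6 and 0 reads in iWAT control libraries. Ctsg, which neutrophils and mast cells share, had 2, 3 and 13 reads in iWAT shiftwork libraries, against 78, 90 and 5 reads in iWAT control libraries. B and plasma cell markers were at 931 and 1418.3 CPM in control replicates 1 and 2 and at 20.6 CPM in control replicate 3.

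Between times in control eWAT, genes of Fc epsilon receptor signalling stood on the other side from the proteases: 11 of 12 were higher at ZT12 than at ZT3, with a median log2 fold change of 0.86 against -0.01 over all genes, and edgeR called 4, where it called 3.69% of all genes. The 9 macrophage markers, cells that share much of this signalling, were all higher at ZT12 in the same comparison, with a median of 1.28 and 3 called. Mcpt1, Mcpt2 and Ctsg were chosen after their values were seen.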
